A study of Mus musculus with 6 samples.

Results

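Macrophages are the most numerous immune cells of the healthy heart, and 37 genes that mark them or carry their functions were followed across 6 mouse heart samples. The genes were taken from a list of macrophage genes, each read by the 1 probe set annotated to its symbol alone, out of 19938 genes on the array. Of these 37, the 6 resident genes Cd163, Lyve1, Folr2, Timd4, Cbr2 and F13a1 were set against the remaining 31. Each sample was heart RNA of an adult of 6 months (postnatal day 180) on 1 Affymetrix Mouse Gene 1.0 ST array. The labels do not state which part of the heart was taken. The Id cKO heart carried Tie2Cre, a floxed and a null allele of Id1, and no intact Id3 (Tie2Cre+Id1F/-Id3-/-). A further pair of hearts, labelled only Id cKO, was incubated with recombinant mouse IGFBP3 (treated) or without it (untreated). Id control 1 had the genotype Id1F/+Id3-/-, without the Cre transgene in its label, and Id control 2 had Tie2Cre+Id1-/-Id3+/-. The last heart was WT. Every group apart from Id control was thus a lone array, and both Id control hearts themselves lacked Id alleles. Tie2Cre recombines floxed alleles in endothelial cells and also in blood-forming cells, so macrophages of the Id cKO heart can carry the deletion. The number of animals behind each sample is not stated.

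Cardiac macrophages come from different sources. Resident cells seeded before birth renew themselves in the tissue and express scavenger and uptake receptors such as CD163, LYVE1, TIMD4 and folate receptor beta, whereas cells recruited from blood monocytes express the chemokine receptor CCR2. Resident macrophages clear dying cells and debris of heart muscle, and recruited ones expand after injury. Id1 and Id3 proteins hold E proteins, a family of helix-loop-helix transcription factors, away from their DNA sites, called E-boxes.

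The deposited values are log2 levels made by the authors with RMA, and the incubated pair was scaled lower, with array medians of 4.45 and 4.51 against 5.73 to 5.83 on the other 4 arrays. All levels below are log2 levels after quantile normalization of the 6 arrays to 1 distribution, and a difference of 1 is 2-fold. A probe set's level can be compared between arrays processed together but not with that of another gene. Whether RMA was run separately for the incubated pair is not stated. Quantile normalization gives the arrays 1 distribution but may leave offsets of single probe sets between the pair and the other 4 arrays. The number of arrays limits the precision. The incubated arrays had the same deposited value at 1586 of 35557 probe sets, and no other pair of arrays did at more than 32. Genes with a mean of at least 6 over the arrays, 9602 in all, entered the limma fit, and 27 of the 37 macrophage genes were among them. The 10 below it were Timd4, Clec10a, Ms4a7, Cd14, Fcgr1, Aif1, Ccr2, Gpnmb, Spi1 and Cd86, for which levels are given without a test. Id3 was low where the label gives no intact Id3 allele, at 4.24 in Id cKO and 4.58 in Id control 1. It was at 6.90 in Id control 2 and 6.81 in WT. The treated and untreated samples, labelled only Id cKO, had 5.03 and 4.74. Id1 was at 6.07 in Id cKO, 6.50 and 6.51 in the treated and untreated samples, 7.68 in Id control 1, 6.00 in Id control 2 and 7.79 in WT. Xist, a female-specific RNA, had levels of 8.23 in Id cKO and 8.19 and 7.71 in the Id controls, but between 3.59 and 3.92 in WT and the incubated pair. Id cKO and the Id controls therefore shared a female pattern. Id control 2 also carried far more atrial muscle RNA (median of 4 atrial genes 3.23 above their mean over Id cKO, the Id controls and WT, against -1.76 to -1.14 in those other 3 hearts).

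Setting Id cKO against Id control asked how macrophage genes stand when both Id genes are lost together. Of the 6 resident genes, 5 were at least 2-fold lower in Id cKO than in each of the Id control hearts, namely Cd163, Lyve1, Cbr2, F13a1 and Folr2. Among all genes tested, 0.406% were that much lower. None of the other 31 macrophage genes was 2-fold apart from both Id control hearts in either direction. The median difference was -1.19 over the resident genes and 0.10 over the remaining ones, beside -0.02 over all genes tested. In RNA of heart tissue, fewer cells of a type and less RNA per cell cannot be told apart.

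Cd163 encodes the scavenger receptor for haemoglobin bound to haptoglobin. Its level was 5.41 in Id cKO, against 6.87 and 7.18 in Id control 1 and 2 and 7.22 in WT. The Id cKO heart stood apart from the other 3, which lay within a narrow band. The difference from Id control was -1.62 ± 0.19 (limma SE), 3.07-fold lower, at rank 16 from the lowest among the 9602 genes, with an adjusted p of 0.152 in limma. Lyve1, a hyaluronan receptor of resident macrophages and of lymphatic endothelium, was at 6.78 in Id cKO, against 7.85 and 8.70 in the Id control hearts and 7.97 in WT. It was the resident gene with the widest gap between the Id control arrays, and the Id cKO value was still below both (difference -1.50 ± 0.38, adjusted p = 0.274 in limma). Cbr2, a carbonyl reductase gene used as a mark of tissue macrophages in mice, was at 6.55 in Id cKO, against 7.80 and 7.79 in the Id controls and 7.04 in WT. Here the Id control arrays were nearly equal, and the difference from Id control was -1.24 ± 0.13 (limma SE), which did not pass limma.

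F13a1 encodes the A subunit of coagulation factor XIII, made by macrophages and platelets. Its level was 7.03 in Id cKO, against 8.04 and 8.28 in the Id controls and 7.61 in WT (difference from Id control -1.13 ± 0.17, adjusted p = 0.191 in limma). For Folr2, the gene of folate receptor beta, the levels were 5.78 in Id cKO, against 6.99 and 6.79 in the Id controls and 6.18 in WT (-1.11 ± 0.16, adjusted p = 0.191 in limma). Its distance from Id control 2 was -1.01, at the 2-fold limit, and with the values as deposited 4 genes rather than 5 were past it. Timd4, the gene of a phosphatidylserine receptor that takes up dying cells, had low values throughout, 4.92 in Id cKO, against 5.34 and 5.25 in the Id controls and 5.10 in WT. Id cKO was again the lowest, but by less than 1.5-fold. All 6 resident genes were lowest in Id cKO among the 4 arrays of its set, where 31.8% of all genes tested were, and so were 7 of the 31 remaining genes.

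**Figure D1:**
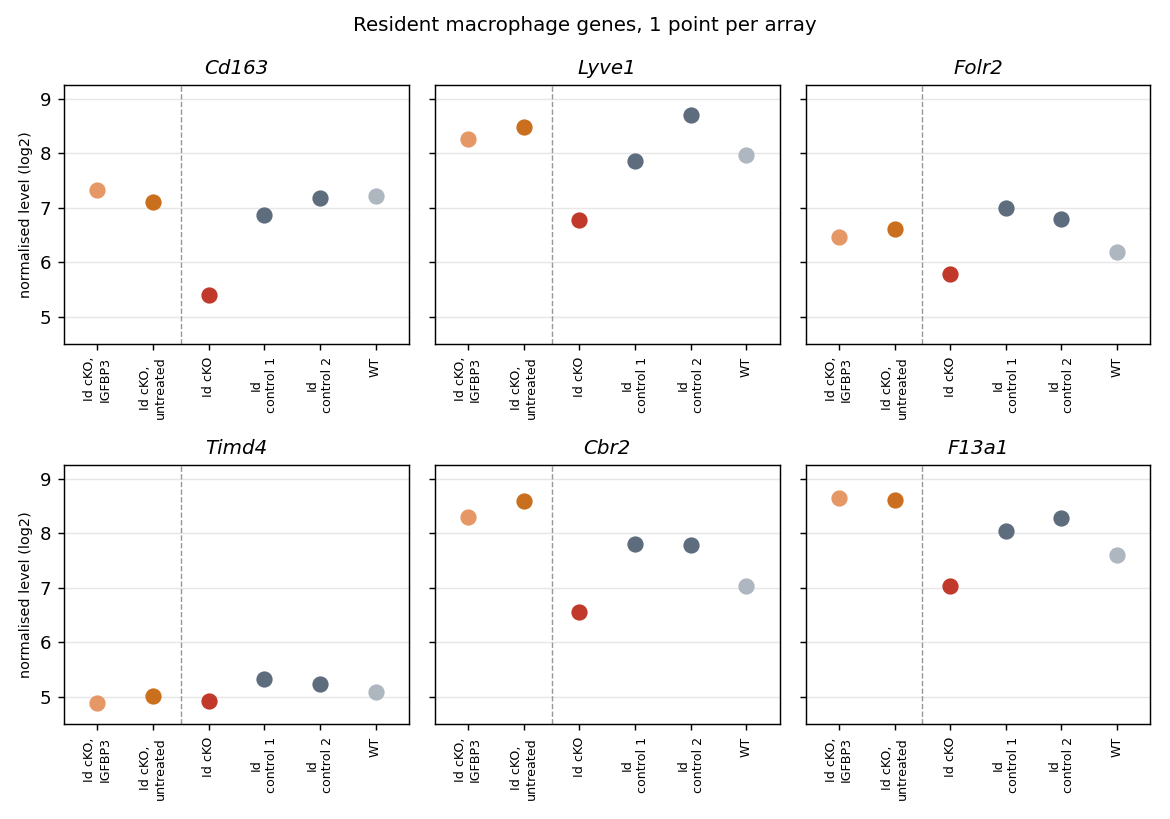
Normalised log2 level of the 6 resident genes on each array, 1 point per array, with the incubated pair left of the dashed line. Cd163, Lyve1, Folr2, Cbr2 and F13a1 are lowest in Id cKO among all 6 arrays, while Timd4 stays between 4.89 and 5.34.

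No macrophage gene passed an adjusted p of 0.05 in limma between Id cKO and Id control, where 2 of all 9602 genes did (0.0208%). At an unadjusted p under 0.05, limma listed all 5 resident genes that were tested and 6 of the 22 other members tested, beside 14.0% of all genes. The fit has 1 residual degree of freedom, from the Id control pair, so the lone Id cKO array was assumed to vary like that pair. Id cKO shares a date code in the labels with Id control 2 and WT but not with Id control 1. What the code dates is not stated. Within that code, against Id control 2 alone, the differences were -1.77 for Cd163, -1.92 for Lyve1, -1.23 for Cbr2, -1.25 for F13a1, -1.01 for Folr2 and -0.32 for Timd4. Id control 2 is also the heart with far more atrial muscle RNA, and the part of that in these values was not tested. With WT joined to the Id controls as a reference of 3 arrays, Cd163 was at -1.68 with an adjusted p of 0.0523 in limma.

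The sequence just upstream of the gene start is shown for 3 of the resident genes that were low together and for Lgals3, the macrophage gene furthest in the other direction. These are the 250 bases before the start, from RefSeq on GRCm38.p6, read 5′ to 3′ on the strand of the gene. Capitals mark CAGGTG or its reverse complement CACCTG, 1 form of the E-box, searched because E-boxes are the sites of the E proteins that Id proteins hold. Other forms of the E-box were not searched and are not marked.
Cd163, chr6:124304401-124304650, plus strand: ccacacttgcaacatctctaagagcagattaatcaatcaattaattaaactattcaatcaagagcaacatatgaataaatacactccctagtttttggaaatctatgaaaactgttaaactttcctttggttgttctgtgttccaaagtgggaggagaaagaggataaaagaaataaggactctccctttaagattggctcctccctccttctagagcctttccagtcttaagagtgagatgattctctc
Folr2, chr7:101845332-101845581, minus strand: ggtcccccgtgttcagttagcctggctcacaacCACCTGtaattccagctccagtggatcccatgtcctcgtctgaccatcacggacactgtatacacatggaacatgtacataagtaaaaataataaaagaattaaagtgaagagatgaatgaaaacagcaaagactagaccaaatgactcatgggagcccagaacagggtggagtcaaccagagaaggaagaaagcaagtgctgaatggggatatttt
Cbr2, chr11:120732022-120732271, minus strand: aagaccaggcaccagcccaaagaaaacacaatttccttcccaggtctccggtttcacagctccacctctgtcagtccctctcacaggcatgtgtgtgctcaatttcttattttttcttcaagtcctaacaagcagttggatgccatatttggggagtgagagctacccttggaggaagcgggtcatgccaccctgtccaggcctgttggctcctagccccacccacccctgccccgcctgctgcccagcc
Lgals3, chr14:47373610-47373859, plus strand: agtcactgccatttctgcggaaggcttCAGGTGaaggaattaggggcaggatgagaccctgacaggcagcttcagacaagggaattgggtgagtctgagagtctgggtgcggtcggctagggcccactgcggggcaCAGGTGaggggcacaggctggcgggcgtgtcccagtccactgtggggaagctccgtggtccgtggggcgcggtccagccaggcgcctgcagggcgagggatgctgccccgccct
The Lgals3 sequence held 2 E-boxes of this form, the Folr2 sequence shown held 1, and those of Cd163 and Cbr2 held none of this form. A second RefSeq start of Folr2 and both starts of F13a1, not shown, had none of this form in their upstream sequences. Of 32 upstream sequences from 27 of the macrophage genes, 4 contained CAGGTG on either strand (C1qb, Folr2, Lgals3 and Stab1), while 17.2% of the 32851 sequences of this length did. The sequence GAGGAAGT or its reverse complement ACTTCCTC, like the site of the macrophage factor PU.1, was in 1 of them (C1qc) and in 2.44% of all. A match of letters is a description and not a binding site.

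Against WT the resident genes were lower in Id cKO as well, 6 of 6 below 0 (51.9% of all genes tested), with a smaller median difference. Cd163 at -1.81 ± 0.22 (limma SE, adjusted p = 0.165) and Lyve1 at -1.19 ± 0.44 (adjusted p = 0.358) were the resident genes 2-fold lower, and 1.07% of all genes tested were. F13a1 was at -0.58, Cbr2 at -0.49, Folr2 at -0.40 and Timd4 at -0.17. None of the remaining 31 genes was 2-fold apart (2.25% of all genes tested were 2-fold higher). At 1.5-fold, Stab1, Ms4a7, Adgre1, Cx3cr1 and Lgals3 were higher (6.86% of all genes tested) and Mertk joined Cd163 and Lyve1 among the lower (3.9%). Over the 31 the median difference was 0.23 against -0.54 for the resident genes and -0.01 for all genes tested. In limma 0 of the 27 members passed in this comparison, and 2 of all genes did (0.0208%). Unadjusted, 13 members and 13.9% of all genes were under 0.05. Other markers differed too, with a median of -0.76 over 3 red cell genes, all lower in Id cKO (Alas2 at 7.12, against 9.08 in WT), and of 1.23 over 7 fibroblast genes, 5 of them higher. The sex pattern also differed between these hearts, and the part of none of these was tested.

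The references differed from each other, and 5 of the 6 resident genes were higher on average in Id control than in WT. Cbr2 was 0.75 ± 0.13 and Folr2 0.71 ± 0.16 higher in Id control than in WT (limma SE), both at least 1.5-fold on each Id control array, as were 0.864% of all genes tested, while 0.489% were as much lower. No member was 2-fold apart (0.104% of all genes higher and 0.0833% lower). For F13a1 the difference was 0.55 ± 0.17. Cd163 ran the other way by little, at -0.19 ± 0.19. No gene of the 27 tested passed in limma in this comparison (smallest adjusted p = 0.687), nor did any of all genes, with 7 members and 675 of all genes at an unadjusted p under 0.05. The median was 0.43 over the resident genes and 0.18 over the remaining ones, beside 0.02 over all genes tested. Markers of other cells were also apart, with a median of 0.95 over 7 fibroblast genes, all higher in Id control. The median over 3 red cell genes was -0.705, all lower, and the platelet gene Ppbp was at 5.74 and 5.79, against 8.19 in WT. The sex pattern and, for Id control 2, the atrial RNA differed as well, and the part of none of these was tested.

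**Figure D2:**
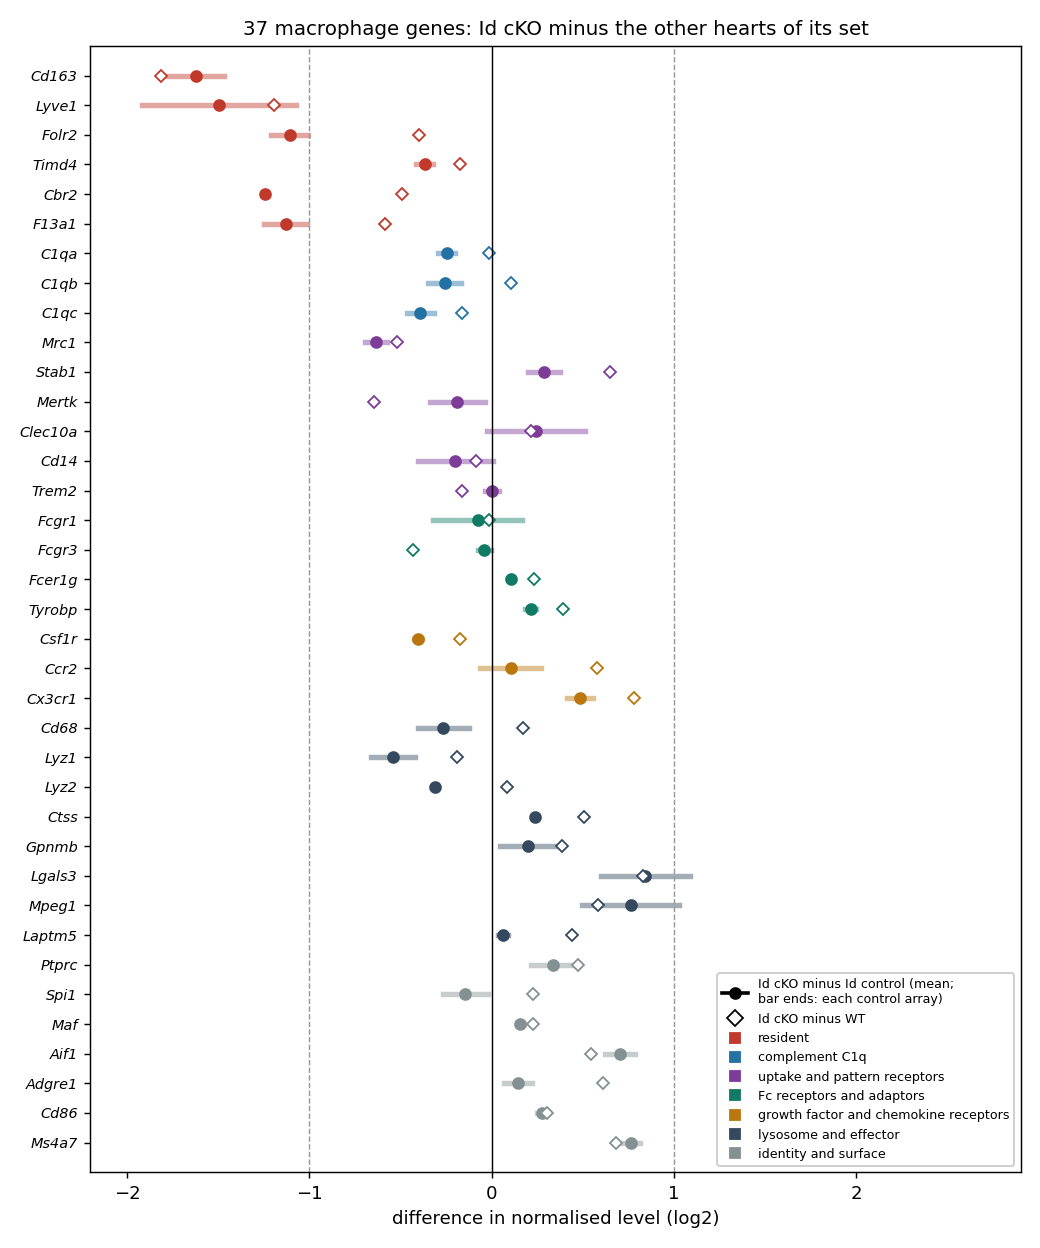
Difference in normalised log2 level for all 37 macrophage genes, with Id cKO minus the mean of the Id control arrays as filled points, the ends of each bar at the difference from either Id control array, and Id cKO minus WT as open diamonds. Dashed lines mark 2-fold, and the 5 resident genes Cd163, Lyve1, Folr2, Cbr2 and F13a1 alone lie beyond it with the whole bar.

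The remaining macrophage genes did not move as a block between Id cKO and Id control. Of the 31, 15 were above both Id control arrays and 11 below both, where 35.3% of all genes tested were above and 39.7% below. Those above both at 1.5-fold or more were Lgals3, Aif1 and Ms4a7 (2.78% of all genes tested), and no gene of the 31 was 1.5-fold below both (2.11% of all genes tested). Lgals3 encodes galectin-3, a lectin secreted by activated macrophages. Its level was 7.01 in Id cKO, against 5.93 and 6.41 in the Id controls and 6.18 in WT (0.84 ± 0.24 from Id control, adjusted p = 0.302 in limma). Aif1, the gene of a calcium-binding protein of macrophages, had 4.999 in Id cKO, against 4.38 and 4.21 in the Id controls and 4.46 in WT. Ms4a7, a membrane protein gene, had 4.30 in Id cKO, against 3.59 and 3.49 in the Id controls and 3.62 in WT. Both lie under the floor for testing. Mpeg1, which encodes a pore-forming protein of phagocytes, was at 6.43 in Id cKO, against 5.94 and 5.41 in the Id controls and 5.85 in WT. The Id control arrays were 0.53 apart for this gene, and the difference from them was of like size (0.76 ± 0.26, adjusted p = 0.332 in limma).

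Among the receptors of growth factors and chemokines, Cx3cr1, the fractalkine receptor gene, was at 6.58 in Id cKO, against 6.02 and 6.17 in the Id controls and 5.80 in WT. It was highest in Id cKO of all 6 arrays, by 0.78 ± 0.17 over WT (limma SE, adjusted p = 0.22). Csf1r encodes the receptor for CSF1, the growth factor on which macrophages depend. Its level was 7.29 in Id cKO, against 7.67 and 7.72 in the Id controls and 7.47 in WT (-0.40 ± 0.14 from Id control, adjusted p = 0.33 in limma). Ccr2, which marks recruited cells, was at 4.27 in Id cKO, against 4.00 and 4.33 in the Id controls and 3.69 in WT. That value lies between the Id control arrays, at levels too low to be tested.

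The uptake receptors split. Mrc1, the mannose receptor gene, leaned with the resident genes at 6.80 in Id cKO, against 7.37 and 7.49 in the Id controls and 7.32 in WT. At -0.63 ± 0.14 from Id control (adjusted p = 0.237 in limma) it was the lowest of the 31 remaining genes. Stab1, a scavenger receptor gene of macrophages and sinusoidal endothelium, was at 8.18 in Id cKO, against 7.80 and 7.97 in the Id controls and 7.53 in WT. It was highest in Id cKO among those 4 arrays. Mertk, a kinase receptor for dying cells, was at 6.48 in Id cKO, against 6.82 and 6.52 in the Id controls and 7.13 in WT, so the WT heart was the one that stood apart. Trem2, a lipid-sensing receptor gene, differed from Id control by 0.00 and the values on the first set of arrays lay between 5.97 and 6.18. Clec10a, a lectin gene, and Cd14, the co-receptor for bacterial lipopolysaccharide, overlapped the Id control values.

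The complement genes C1qa, C1qb and C1qc encode the chains of C1q. In Id cKO all 3 were lower than both Id controls, as were 39.7% of all genes tested, but by less than 1.5-fold. Their differences from Id control were -0.25 ± 0.14, -0.26 ± 0.15 and -0.39 ± 0.15 (limma SE). C1qa was at 7.71 in Id cKO, against 8.00 and 7.91 in the Id controls and 7.73 in WT. The Fc receptor genes Fcgr1 and Fcgr3 and the signalling adaptor genes Fcer1g and Tyrobp differed from Id control by -0.08 to 0.21. Lyz1 and Lyz2, the neighbouring lysozyme genes, were lower than both Id controls (-0.54 ± 0.17 and -0.31 ± 0.13), and since their products are near-identical their signals may not be separate. The lysosomal genes Cd68 and Ctss were at -0.27 and 0.24, and Laptm5 at 0.06. Adgre1, an adhesion receptor gene used to mark mouse macrophages, was at 6.68 in Id cKO, against 6.61 and 6.45 in the Id controls and 6.06 in WT. Ptprc, the leukocyte common antigen gene, had 6.29 in Id cKO, against 6.07 and 5.84 in the Id controls and 5.81 in WT. The transcription factor genes Maf and Spi1 (PU.1) were within 0.16 of Id control.

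A wider list of 15 tissue macrophage genes outside the 37 had a median of -0.18 between Id cKO and Id control, with 0 genes 2-fold higher and 1 lower (0.708% and 0.406% of all genes tested). That gene was Vsig4, a complement receptor of resident macrophages, at 3.88 in Id cKO, against 5.24 and 4.91 in the Id controls and 4.33 in WT. Mgl2, a lectin gene, was at 5.28 in Id cKO, against 6.17 and 6.23 in the Id controls and 5.90 in WT. Pf4, expressed in macrophages and platelets, was at 5.73 in Id cKO, against 6.42 and 6.40 in the Id controls and 6.20 in WT. These 3 genes were at least 1.5-fold lower than both Id controls and none of the list was as much higher (2.11% and 2.78% of all genes tested). In the list of 10 measured monocyte genes the median was 0.10, and Itgam, an integrin gene, was the member furthest off at -0.88. The 14 measured genes of activated macrophages had a median of 0.00, with Retnla 1.17 lower and Il1b 0.88 higher. Of 9 measured lineage regulators, Id2, a relative of Id1 and Id3, had the largest difference at 0.88, with 7.68 in Id cKO, against 6.46 and 7.14 in the Id controls and 6.45 in WT. Vsig4, Mgl2, Itgam, Retnla and Il1b lay under the floor and were not tested, as did 8 of the 15 tissue macrophage genes and 8 of the 10 monocyte genes. No list gene that was tested passed limma in this comparison.

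Other cell types that express these genes were read beside them. Prox1, Pdpn, Flt4, Mmrn1 and Reln, genes of lymphatic endothelium, which also expresses Lyve1, had a median of 0.34 above Id control (range -0.015 to 0.83). The part of these cells in the Lyve1 value was not tested. Endothelial genes had a median of 0.39 above Id control and fibroblast genes -0.28, while cardiomyocyte genes were at -0.15. As a median deviation from each gene's mean over Id cKO, the Id controls and WT, the fibroblast list was at 0.18 in Id cKO. That lay between Id control 1 (-0.13) and Id control 2 (0.685). Platelets also contain F13a1 and Pf4, and the platelet gene Ppbp was at 4.85 in Id cKO, against 5.74 and 5.79 in the Id controls and 8.19 in WT. Its part in the F13a1 value was not tested. The medians of neutrophil (0.00), T cell (0.15), B cell (0.17), NK cell (-0.03), dendritic cell (0.27) and mast cell genes (-0.05) were all within 0.3 of Id control, and that of red cell genes was -0.05. All 7 dendritic cell genes, of which 1 was tested, were above the Id control mean. The 6 mast cell genes split with 3 above and 3 below, and Kit among them was 1.47 higher, past 2-fold from both Id controls. RMA gives no zero levels, so absence of a cell type cannot be read from these values.

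**Figure D3:**
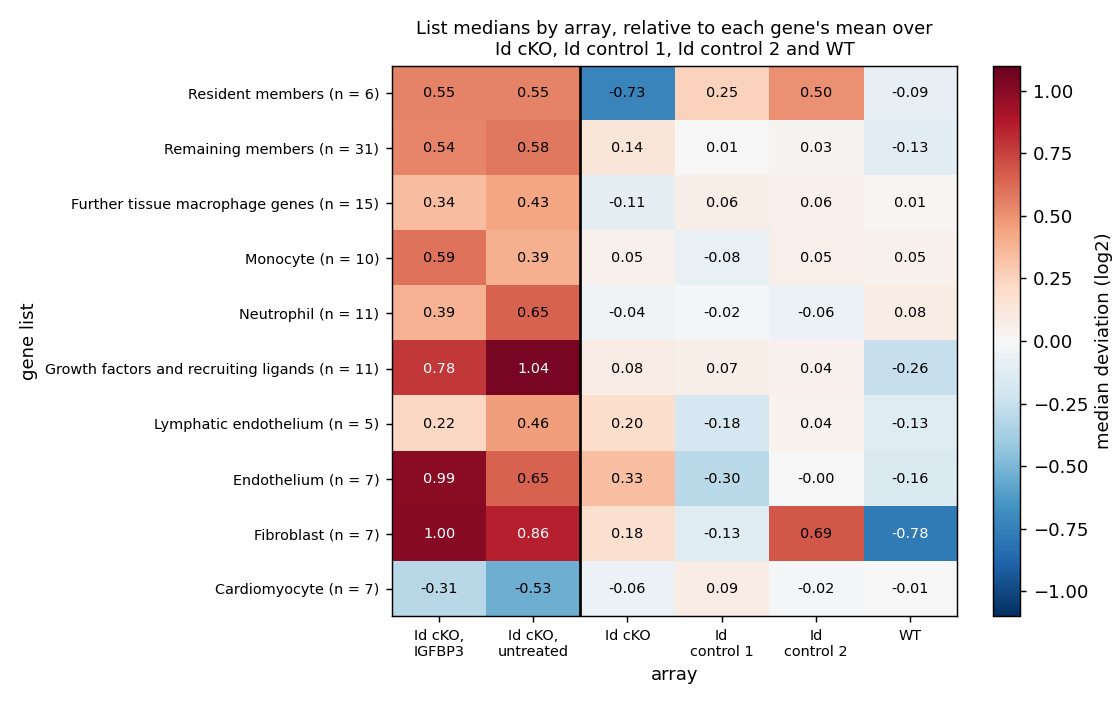
Median of each gene list on each array, as the log2 deviation of every gene from its own mean over Id cKO, the Id controls and WT, with the number of measured genes in parentheses and the incubated pair left of the black line. The resident genes are at -0.73 in Id cKO and the remaining macrophage genes at 0.14, while both are above 0.5 on the incubated pair.

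Treated and untreated Id cKO hearts were compared to ask whether IGFBP3 alters these genes. The resident genes were close to each other, with differences of -0.28 to 0.21, a median of -0.13 and none 1.5-fold apart. Among the remaining 31 genes, Laptm5 was 2-fold lower in the treated heart, as were 0.875% of all genes tested, and at 1.5-fold 6 were lower and 1 higher, beside 6.64% and 6.15% of all genes. Laptm5, a lysosomal membrane protein gene of blood cells, was at 8.15 in the treated heart, against 9.19 in the untreated one. In the values as deposited or after median centring it fell just short of 2-fold. The 3 C1q genes went together, with C1qa at 8.68 treated, against 9.41 untreated, C1qb at 8.11, against 8.79, and C1qc at 8.48, against 9.20. Lyz1 was at 7.71 in the treated heart, against 8.43 in the untreated, and Spi1 at 5.26, against 6.14. Ccr2 was the gene 1.5-fold higher, at 4.62 treated, against 3.66 untreated, a low level on both arrays.

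In limma 0 of 27 members and 0 of 9602 genes passed between treated and untreated, with a smallest adjusted p of 0.204. At an unadjusted p under 0.05 it listed 7 members (Stab1, C1qa, C1qb, C1qc, Lyz1, Fcer1g and Laptm5), all lower, and 21.0% of all genes. The spread in this fit comes from the Id control pair, and neither heart of the incubated pair has a replicate. The median over the remaining 31 genes was -0.22, beside 0.00 over all genes tested. Among 11 measured growth factor and recruiting genes, 10 were lower in the treated heart and 1 was higher. At 1.5-fold 4 were lower and 1 higher, beside 6.64% and 6.15% of all genes tested. The lower ones were Tgfb1 (8.15, against 9.56), Cx3cl1 (difference -0.71), Ccl7 (-0.71) and Csf1 (7.52, against 8.13). The higher one was Pros1 (difference 0.59).

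**Figure D4:**
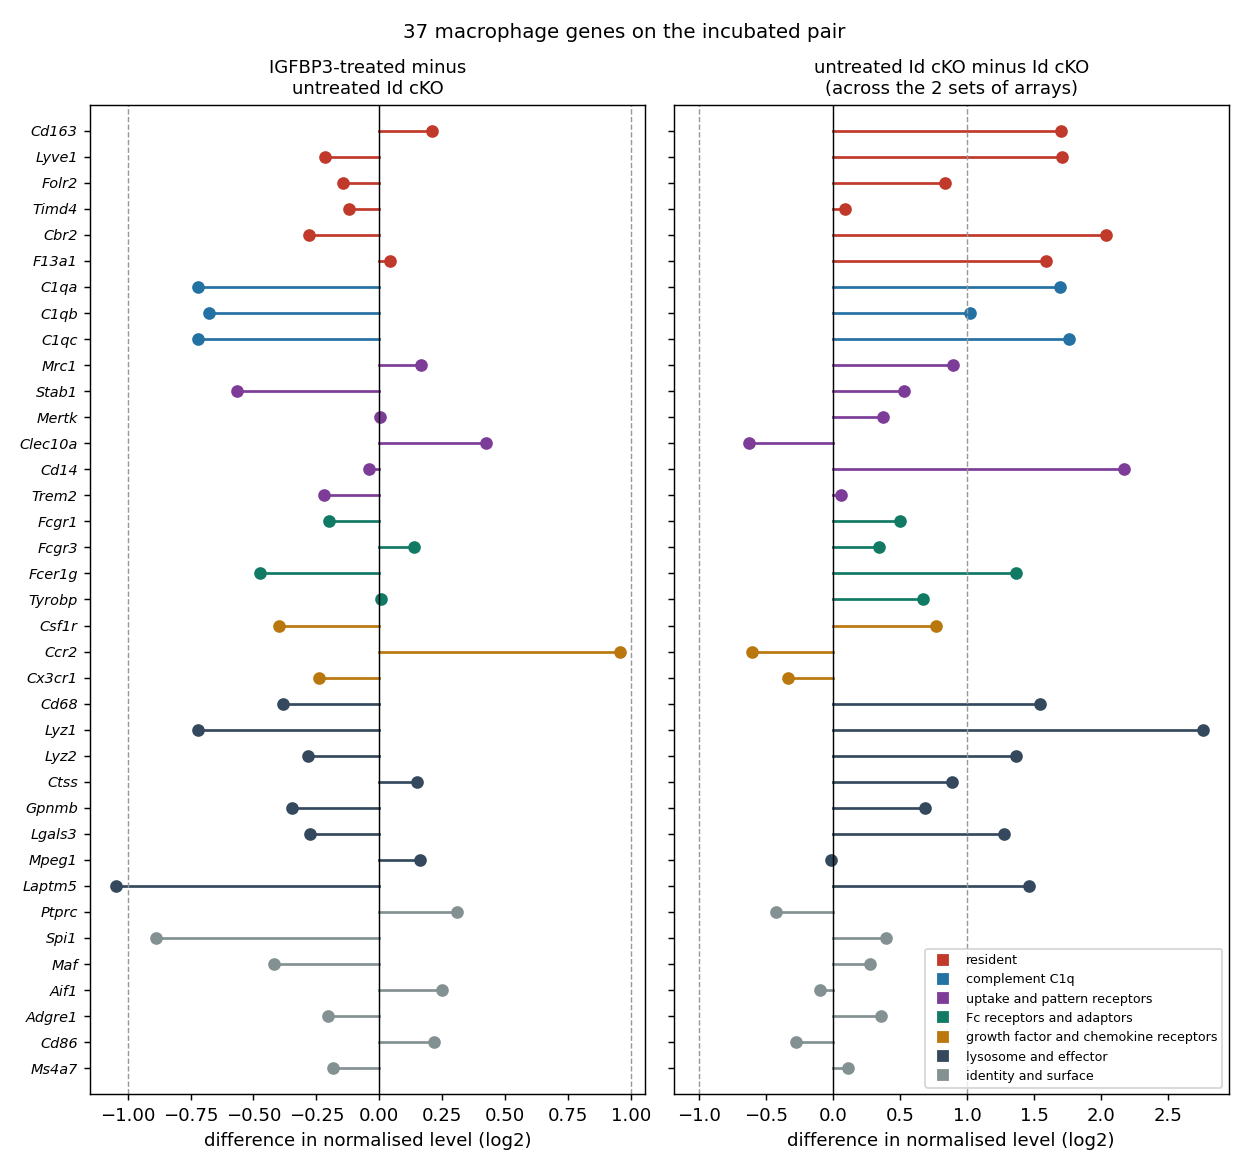
Difference in normalised log2 level for the 37 macrophage genes, with IGFBP3-treated minus untreated Id cKO on the left and untreated Id cKO minus Id cKO on the right, 1 array against 1 array in both. On the left Laptm5 alone passes the dashed 2-fold line, and on the right 14 genes lie above it and none below.

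Both incubated hearts are labelled Id cKO, yet the low resident levels of the Id cKO heart were not seen in them. Cd163 was at 7.32 in the treated and 7.11 in the untreated heart, Lyve1 at 8.27 and 8.48, Cbr2 at 8.31 and 8.59, F13a1 at 8.66 and 8.61, and Folr2 at 6.47 and 6.61. For these 5 genes both incubated hearts were at least 1.5-fold above the Id cKO heart. Untreated minus Id cKO, Cbr2 was at 2.04 ± 0.16 (limma SE, adjusted p = 0.0434), Cd163 at 1.70 ± 0.22 (adjusted p = 0.0514), Lyve1 at 1.70, F13a1 at 1.59, Folr2 at 0.83 and Timd4 at 0.09. The joint pattern, 1.5-fold lower in Id cKO than in both Id controls and in both incubated hearts, held for 5 of 6 resident genes, 0 of the 31 remaining genes and 0.448% of all genes tested. It was tallied after the values had been seen.

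Many other macrophage genes were also higher in the untreated heart than in Id cKO. At 2-fold, 4 of 6 resident and 10 of 31 remaining genes were higher, where 4.51% of all genes tested were, and none was 2-fold lower (3.27% of all genes tested). Members that passed limma were Lyz1 (2.76 ± 0.19, adjusted p = 0.0397), Cbr2 and C1qa (1.70 ± 0.16, adjusted p = 0.0483), while 0.677% of all genes passed. Unadjusted, 19 members and 33.8% of all genes were under 0.05. With an intensity trend in the fit 10 of the 27 members passed, and 380 of all genes did in place of 65. Cd14 had levels of 7.31 (treated) and 7.35 (untreated), against 5.18 in Id cKO, the second widest gap of the 37. Lyz2 had 10.13 and 10.41, against 9.05, Cd68 7.43 and 7.82, against 6.27, and Fcer1g 7.94 and 8.41, against 7.05. Lgals3, already high in Id cKO, was higher still at 8.01 and 8.29. Ctss (8.70 and 8.55, against 7.67 in Id cKO), Csf1r (7.66 and 8.06, against 7.29), Tyrobp (7.02 and 7.01, against 6.35), Mrc1 (7.86 and 7.69, against 6.80) and Gpnmb (5.81 and 6.16, against 5.47) followed at a lesser distance. Clec10a (4.82 and 4.39, against 5.02), Ccr2 and Cx3cr1 (6.01 and 6.25, against 6.58) were among the 7 genes below Id cKO in the untreated heart. The others were Ptprc (untreated minus Id cKO -0.43), Cd86 (-0.28), Aif1 (-0.10) and Mpeg1 (-0.02).

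**Figure D5:**
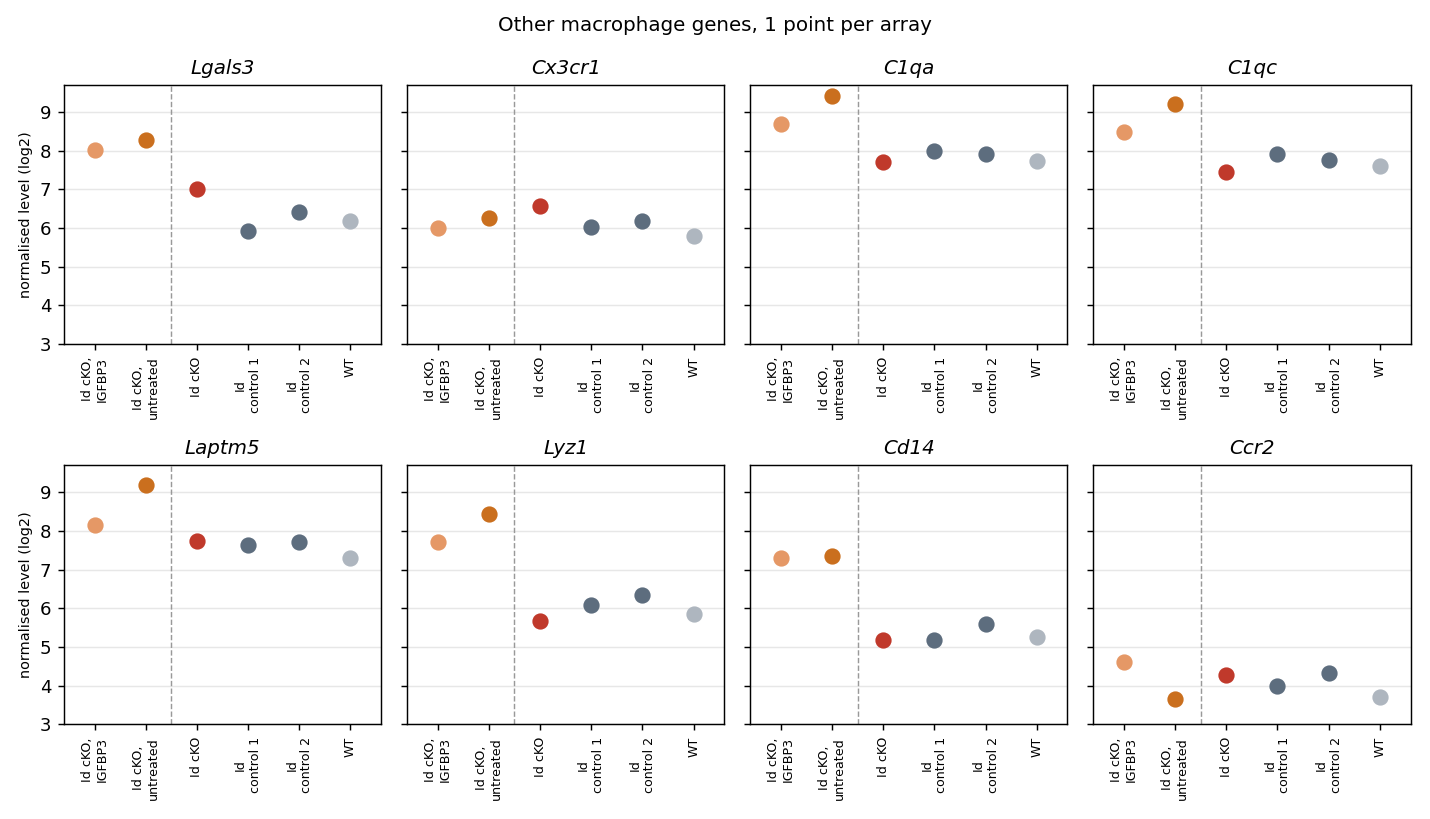
Normalised log2 level of 8 macrophage genes outside the resident group on each array, 1 point per array, with the incubated pair left of the dashed line. C1qa, C1qc, Laptm5 and Lyz1 are higher in the untreated than in the treated heart, and Cd14 is at 7.31 and 7.35 on the pair against at most 5.59 elsewhere.

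Set against Id control in place of Id cKO, the untreated heart had resident genes near the control level (median 0.15) and the remaining genes above it (median 0.74, beside -0.04 over all genes tested). In limma 13 of 27 members passed, 1 resident (Cbr2, 0.79 ± 0.13, adjusted p = 0.0248) and 12 others, all higher, while 29.2% of all genes passed in either direction. Lgals3 was at 2.12 ± 0.24 (adjusted p = 0.0172) and Fcer1g at 1.47 ± 0.14 (adjusted p = 0.016). At 2-fold from both Id control arrays, 0 of 6 resident and 10 of 31 remaining genes were higher, beside 4.54% of all genes tested, and none was lower (4.05%). This setting was chosen once the values were known. The untreated heart also differs from the Id controls in deposited scale, sex pattern and incubation. None of these enters the spread of the fit, which comes from the Id control pair. Genotype, incubation, batch, sex and the individual hearts therefore cannot be told apart here.

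Genes of several other lists were also higher on the incubated pair. Csf2, a growth factor gene of myeloid cells, had levels of 6.92 (treated) and 7.28 (untreated), against 3.67 in Id cKO. Ccl2, whose product attracts CCR2-bearing monocytes, was at 7.49 and 8.03, against 4.86, and Ccl7, a related chemokine gene, at 7.42 and 8.12, against 5.33 (untreated minus Id cKO adjusted p = 0.0349 in limma). Of 11 measured growth factor and recruiting genes, 6 were 2-fold higher in untreated than in Id cKO, beside 4.51% of all genes tested. The floor for testing was met by 7 of these 11 genes, and Csf2 and Ccl2 lie under it. The neutrophil gene S100a8, also under the floor, was at 5.44 and 5.72, against 3.86. Nr4a1, an immediate early gene also high in patrolling monocytes, was at 9.50 and 10.58, against 7.91. Fibroblast genes had a median of 0.71 and endothelial genes 0.09 in this comparison, and cardiomyocyte genes -0.38. Blood genes were higher as well. The 3 measured red cell genes had a median of 1.06 and all were above Id cKO, with Alas2, the haem synthesis enzyme of red cells, at 10.39 treated and 10.03 untreated, against 7.12 in Id cKO (untreated minus Id cKO adjusted p = 0.0349 in limma). The platelet gene Ppbp had 8.55 treated and 7.52 untreated, against 4.85 in Id cKO. The part of these cells in the macrophage values was not tested. The pair also differs from Id cKO in date code, deposited scale and sex pattern, so incubation, batch, sex and the individual hearts cannot be told apart.

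The Id control arrays, which differ in genotype and date code, gave the spread for these comparisons. Between them (1 minus 2) no macrophage gene was 2-fold apart, and at 1.5-fold Lyve1 alone was, at -0.85, beside 1.20% of all genes tested higher and 2.82% lower. The resident median was -0.11 and the median of the remaining genes -0.01, beside 0.02 over all genes tested.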

How the data were processed

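The authors' deposited log2 values, covering 35557 probe sets on every array, were made with Affymetrix Expression Console and RMA, per the submitters' processing notes (no version is stated there). RNA was extracted with RNeasy, per the labels' protocols. Probe sets with 1 gene symbol in the platform annotation (21789) named genes, those with several (1621) or none (12147) did not, and a gene was read from its probe set of highest mean. The 6 arrays were quantile-normalised together. limma (version 3.58.1, R 4.3.3) was fitted with 5 groups over genes with a mean of at least 6, with Benjamini-Hochberg adjustment over all of them, and was tested on simulated data. With 1 residual degree of freedom, p-values measure only the spread between the Id control arrays. These differ in genotype, date code and atrial RNA, so it is not a spread between like replicates, and part of it may be technical. Against Id control, a gene counted as 2-fold or 1.5-fold apart only when it was so from both arrays.

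The members and lists were chosen with earlier results of these data known. Levels per array are given for the resident genes and for other members 1.5-fold apart in any comparison, and list genes were named for the largest differences. Csf2, S100a8, Ppbp and Xist were named after their values were seen. The alternatives were deposited values, median centring, no floor, a floor of 7, mean of probe sets, an intensity trend, leaving out an Id control array, and other reference or tested arrays. The E-box search was added after the files had been seen.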

Additional observations from a re-analysis of the deposited data

How the results depend on the processing

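Between Id cKO and Id control, every resident gene that entered the test stayed lower under each scaling, floor, probe-set and trend setting, and 0 members passed limma there (11 at an unadjusted p under 0.05 in the main setting). The resident median ran from -1.25 to -1.19 over the scalings and from -1.24 to -1.14 when an Id control replicate was left out. With WT joined to Id control it was -0.97, and limma called 20 of all genes in place of 2 (1 with a floor of 7). With all 3 arrays of Id cKO genotype against the 3 without, it was -0.31, 417 genes and 1 member (Lgals3) were called, and Cbr2 and F13a1 changed sign (0.27 and 0.12). With the untreated Id cKO heart in place of Id cKO, an alternative chosen after seeing the data, it was 0.145, 2805 genes and 13 members were called, and Cd163 (0.081), Lyve1 (0.21), Cbr2 (0.79) and F13a1 (0.46) changed sign. Median centring turned Trem2 (-0.026) and Laptm5 (-0.018) in the main comparison, and Lgals3 (0.076) in Id control minus WT and Mpeg1 (0.008) in untreated minus Id cKO. C1qa against WT was 0.019 as deposited and 0.081 after centring. The resident median against WT was -0.42 after centring, and limma called 11 genes without a floor and 0 with a floor of 7 or the mean of probe sets (932 and 1311 at an unadjusted p under 0.05). For Id control minus WT the resident median was 0.52 as deposited, 0.61 after centring, and 0.33 to 0.64 with an Id control replicate left out, and 3 genes were called without a floor. Laptm5 was 2-fold lower with IGFBP3 in the main setting, but 0 members were 2-fold apart as deposited or centred. For untreated minus Id cKO, limma called 445 genes and 10 members after centring, 766 and 11 without a floor, and 380 and 10 with a trend, in place of 65 and 3. The cause of these changes was not tested. No paired analysis was possible because every comparison has at least 1 group of a single array, which leaves fewer than 2 pairs. The values against Id control 2, which shares the date code of Id cKO but carried far more atrial muscle RNA, stand in the report.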
